A study of Mus musculus with 10 samples.

Results

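The amyloid-β peptide is cut out of the amyloid precursor protein (APP) by secretases, and 9 mouse genes for these enzymes and their subunits were followed in the cortex: Bace1, Bace2, Adam10, Adam17, Ncstn, Psen2, Psenen, Aph1a and Aph1b. They were chosen by name and not by their values, though with earlier results of these data known. They are 9 of the 53700 gene identifiers in the counts. All 9 were among the 19268 genes tested. Cortical RNA of female 5XFAD mice aged 4 months was made into 10 libraries, of which 5 were labelled 5XFAD;Neu cKO and 5 were labelled 5XFAD. 5XFAD mice express mutant human APP and presenilin transgenes under mouse Thy1 sequence, and both groups carry them. In the 5XFAD;Neu cKO mice a floxed Idol allele (the gene Mylip, a ubiquitin ligase for lipoprotein receptors) was to be deleted by Camk2a-Cre, which is active in excitatory forebrain neurons. Other cell types were not targeted. The controls were 5XFAD littermates whose label reads WT for Idol and Camk2a-cre, and it does not say whether they carried a floxed allele or Cre alone.

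APP is cut along either of 2 routes. In one, α-secretase cuts inside the amyloid-β sequence, and in neurons this enzyme is mainly ADAM10, with ADAM17 acting in regulated shedding. In the other, β-secretase (BACE1) makes the first cut. γ-Secretase, a complex of presenilin, nicastrin, PEN-2 and APH-1, then cuts within the membrane on both routes. The comparison asked whether the mRNAs for these enzymes differed between cortices labelled as lacking neuronal Idol and their controls.

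The enzymes are either zinc metalloproteases or aspartate proteases, which can be read from the codons around their active sites. These stretches are shown because they separate the members that cut from the other subunits of γ-secretase. Each is the coding strand in GRCm39, taken from the GENCODE transcripts, and the capitals mark the codons of the zinc-binding histidines and the catalytic glutamate in the metalloproteases, or of the catalytic aspartate in the others. The zinc site of Adam10 lies at chr9:70661578-70668867 on the plus strand and is split by an intron, and that of Adam17 lies within 1 exon at chr12:21386733-21386765 on the minus strand.
Adam10 zinc site: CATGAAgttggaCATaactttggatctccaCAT
Adam17 zinc site: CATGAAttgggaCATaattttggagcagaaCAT
The sequences share 26 of 33 bases, the 12 capital bases included. Each β-site enzyme has an aspartate in each lobe. The printed stretches lie within coding exons, at chr9:45764192-45764218 and chr9:45769713-45769739 for Bace1 and at chr16:97200840-97200866 and chr16:97216294-97216320 for Bace2, all on the plus strand.
Bace1 first aspartate: atcctggtgGACacgggcagtagtaac
Bace2 first aspartate: attcttgtgGACactggaagcagtaac
Bace1 second aspartate: agcattgtgGACagtgggaccaccaac
Bace2 second aspartate: gccattgtgGACagtggcaccacgctc
Bace1 and Bace2 share 22 of 27 bases at the first site and 21 of 27 at the second. Psen2, the presenilin analysed here, carries its aspartates in neighbouring membrane segments, at chr1:180061261-180062566 (split by an intron) and chr1:180056495-180056518 on the minus strand.
Psen2 first aspartate: atctctgtgtacGATctcgtggccgtg
Psen2 second aspartate: aagctcggcctgggaGACttcatc
Ncstn, Psenen, Aph1a and Aph1b encode the other subunits of γ-secretase, which hold no catalytic aspartate pair.

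The libraries were QuantSeq 3′ libraries, in which reads come from the end of a transcript, so that counts do not grow with its length. Reads on genes totalled 4320504 to 7466192 per library, and values are given as CPM, the count of a gene per 1000000 reads on genes after TMM scaling, a correction for library composition. Mylip did not separate the groups. It stood at 9.69, 12.4, 14.7, 9.32 and 10.1 CPM in the 5XFAD libraries and at 14.4, 14.3, 19.4, 18.8 and 7.18 CPM in the 5XFAD;Neu cKO group, a log2 fold change of 0.39 (edgeR adjusted p = 0.777). The reads used here are from the 3′ end and from all cell types, so this count is no check of a deletion elsewhere in the gene or in neurons alone. By qPCR, the paper reports lower Idol mRNA in the cortex of its neuronal knockout mice than in controls. That RNA was also taken from cortical tissue and not from neurons alone. Why the Mylip count did not separate the groups here was not tested. The tissue showed its neurons: Nrgn, a calmodulin-binding protein of excitatory neurons, was counted at 2149 ± 204 CPM (SD, n = 5) in 5XFAD and at 2023 ± 113 CPM (SD, n = 5) in 5XFAD;Neu cKO. Of 9 markers of cortical excitatory neurons 0 passed the test (an edgeR adjusted p under 0.05), where 0.218% of all genes tested did, so that count says little about these cells. Microglia markers moved with the groups. All 15 microglia markers tested were lower in 5XFAD;Neu cKO, 7 of them past the threshold (Cx3cr1, Csf1r, C1qb, C1qc, Tyrobp, Ctss and Laptm5), their median log2 fold change being -0.67, and their summed level was 537 to 781 CPM in 5XFAD and 358 to 457 CPM in 5XFAD;Neu cKO. Ctss, a lysosomal protease, had the highest level among these markers, at 154 ± 27.2 against 81.7 ± 13.6 CPM (SD, n = 5 each). Of 10 astrocyte markers 9 were lower and 1, Gfap, passed the test (log2 fold change -0.88, edgeR adjusted p = 0.00202), while their summed level was 4434 to 5187 CPM in 5XFAD and 4304 to 4929 CPM in 5XFAD;Neu cKO. All 10 oligodendrocyte markers were lower and 1, Mal, passed (-0.48, edgeR adjusted p = 0.0427), with summed levels of 2118 to 3106 and 1875 to 2949 CPM. Of 7 genes of neighbouring regions 4 were lower, with sums of 318 to 436 and 281 to 460.4 CPM. Among them Oxt, a hormone gene of the hypothalamus, fell by 2.40 on the log2 scale (edgeR adjusted p = 0.000932). Oxt ran from 2.98 to 34.3 CPM in 5XFAD and from 0 to 12.3 CPM in 5XFAD;Neu cKO, so its groups overlapped. In bulk tissue, fewer cells of a type and less RNA per cell cannot be told apart. The part of these shifts in the values of the secretase genes was not tested.

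None of the 9 secretase genes passed the test between the groups. With edgeR's quasi-likelihood test and an adjusted p under 0.05 over all genes, 0 of 9 were called, where 0.218% of all genes tested were. At an unadjusted p under 0.05 the count was also 0 of 9, against 7.95% of all genes, and DESeq2 gave 0 of 9 at that level. DESeq2 gave an adjusted p for 4 of the 9 (Bace1, Adam10, Psen2 and Aph1b), called none of these 4, and left that of the other 5 as NA. The groups overlapped for every one of the 9, whereas 1.3% of all genes tested had groups that did not overlap. The log2 fold change of 4 members was above 0 and that of 5 was below 0, with a median of -0.06 (all genes tested, -0.00056). With 0.218% called in all, a count of 0 among 9 genes is near the background and says little about the secretases as a set. The intervals below give the sizes of change that these libraries leave possible.

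**Figure D1:**
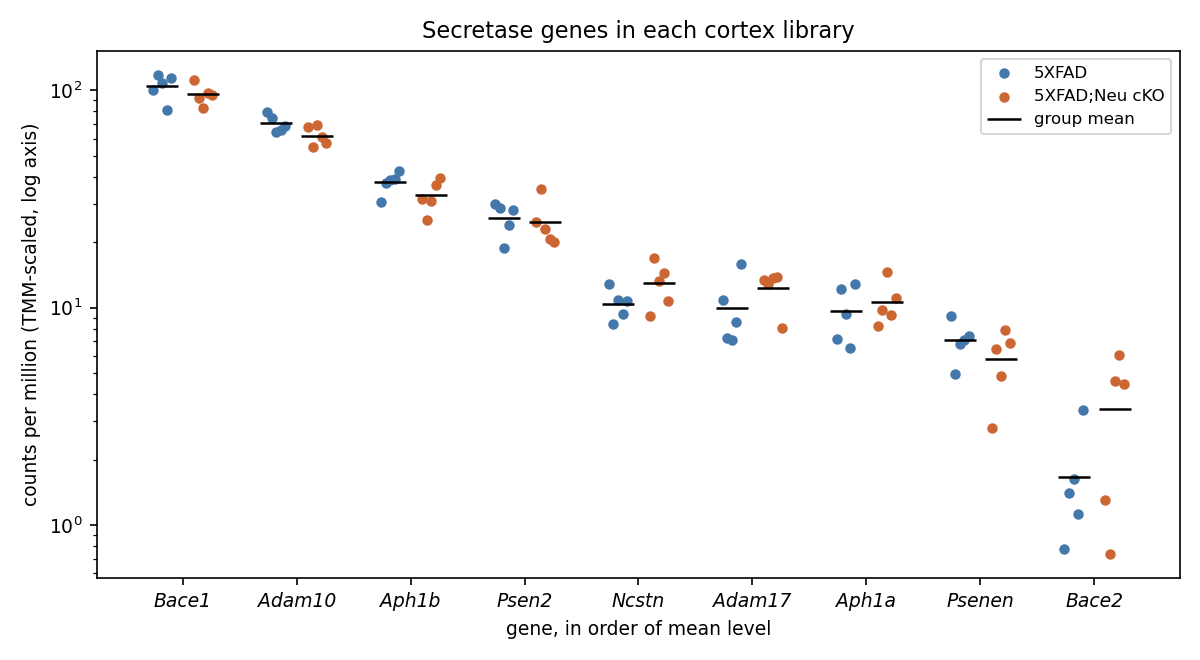
CPM (TMM-scaled, logarithmic axis) of the 9 secretase genes in the 5 5XFAD (blue) and 5 5XFAD;Neu cKO (orange) libraries, with a black bar at each group mean. Bace1 and Adam10 stood above the other genes in every library, and the points of both groups overlap for all 9 genes.

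The level of the secretase mRNAs differed far more between genes than between groups. Bace1 was the highest at a mean of 100.2 CPM over the 10 libraries, above 92.5% of the genes tested, and Adam10 was next at 66.2 CPM. Bace1 exceeded Adam10 and Adam10 exceeded Aph1b in 10 of 10 libraries, and the ranges of neither pair overlapped. Aph1b (35.3 CPM) was above Psen2 (25.3 CPM) in 9 of 10 libraries, although their ranges overlapped, and Psen2 was above Ncstn (11.7 CPM) in 10 of 10 with no overlap. Ncstn, Adam17 (11.2 CPM) and Aph1a (10.1 CPM) were not separated from one another. Ncstn was the higher of its pair with Adam17 in 7 of 10 libraries, and Adam17 of its pair with Aph1a in 6 of 10. Psenen (6.42 CPM) and Bace2 (2.54 CPM) stood lowest. Bace2 was below Psenen in 10 of 10 libraries, though their ranges overlapped. The order holds for counts. Of the read-length stretches at the 3′ end, 98.8% recur in the genome for Aph1a, 44.9% for Psenen and 14.8% for Aph1b. Reads with several places were set aside by the counting, so the ranks of these genes are uncertain as amounts of mRNA.

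The α-secretase Adam10 was slightly lower in 5XFAD;Neu cKO on average, by less than the test could call. Its levels were 79.8, 74.4, 64.1, 65.6 and 68.2 CPM in the 5XFAD libraries and 67.7, 54.8, 69.2, 60.9 and 57.0 CPM in the 5XFAD;Neu cKO libraries. Below the lowest 5XFAD library lay 3 of the 5 5XFAD;Neu cKO libraries, and the other 2 lay inside the 5XFAD range. The means were 70.4 ± 6.56 and 61.9 ± 6.35 CPM (SD, n = 5 each). The log2 fold change was -0.18 ± 0.12 (SE), with a 95% interval from -0.42 to 0.05 (edgeR adjusted p = 0.777, exact two-sided permutation p = 0.0794). The smallest p that relabelling 5 against 5 libraries can give is 0.00794. As a ratio of the means, the interval runs from 0.750 to 1.03.

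Adam17, the metalloprotease known for shedding TNF, was counted at a much lower level than Adam10. It measured 10.9, 7.27, 7.06, 8.57 and 15.9 CPM in 5XFAD and 13.5, 12.9, 13.7, 13.8 and 8.04 CPM in 5XFAD;Neu cKO. In 5XFAD;Neu cKO 4 libraries lay close together between 12.9 and 13.8 CPM and 1 lay apart below them, while the highest value of all was a 5XFAD library. This was a log2 fold change of 0.32 (95% interval -0.21 to 0.85, edgeR adjusted p = 0.871). Within a library the ratio of Adam17 to Adam10 was 0.142 ± 0.0537 (SD, n = 5) in 5XFAD and 0.200 ± 0.0368 (SD, n = 5) in 5XFAD;Neu cKO, and the ranges overlapped.

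Bace1, the β-secretase of the brain, was the best counted of the 9, with 435 to 797 reads per library. Its levels were 101, 118, 108, 81.1 and 114 CPM in 5XFAD and 112, 92.1, 83.2, 97.4 and 95.7 CPM in 5XFAD;Neu cKO. Every 5XFAD;Neu cKO library lay within the range of the 5XFAD libraries. The means were 104 ± 14.6 and 96.1 ± 10.4 CPM (SD, n = 5 each), a log2 fold change of -0.12 with a 95% interval from -0.33 to 0.09 (edgeR adjusted p = 0.878). On the scale of a ratio the interval runs from 0.794 to 1.07, the narrowest of the 9.

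Bace2, the homologue of Bace1, had the largest estimate and the widest interval. It was counted 4, 6, 12, 6 and 15 times in the 5XFAD libraries and 7, 4, 35, 36 and 31 times in the 5XFAD;Neu cKO libraries. In CPM these are 0.775, 1.41, 1.63, 1.12 and 3.37 against 1.31, 0.736, 4.59, 6.06 and 4.45. The 5XFAD;Neu cKO libraries split into 3 above every 5XFAD library and 2 within or below the 5XFAD range. The log2 fold change of 1.06 had a 95% interval from -0.12 to 2.24 (edgeR unadjusted p = 0.0767, adjusted p = 0.700), which in ratio runs from 0.917 to 4.74. The exact two-sided permutation p was 0.254. Of the genes tested, 33.1% had a lower mean level than Bace2, and the spread of its libraries within groups was 69.6% of its mean, against 25.3% from counting alone.

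The balance of the first cut was also described within each library, where no scaling between libraries enters. The ratio of Adam10 to Bace1 counts was 0.794, 0.630, 0.592, 0.809 and 0.598 in 5XFAD and 0.604, 0.595, 0.831, 0.625 and 0.596 in 5XFAD;Neu cKO. In both groups most libraries lay near 0.6 and the rest near 0.8, with 2 of 5 in the upper set in 5XFAD and 1 of 5 in 5XFAD;Neu cKO. The means were 0.685 ± 0.108 and 0.650 ± 0.102 (SD, n = 5 each). The difference on the log2 scale, -0.07, was less than the spread between libraries of one group (SD 0.22 and 0.21).

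**Figure D2:**
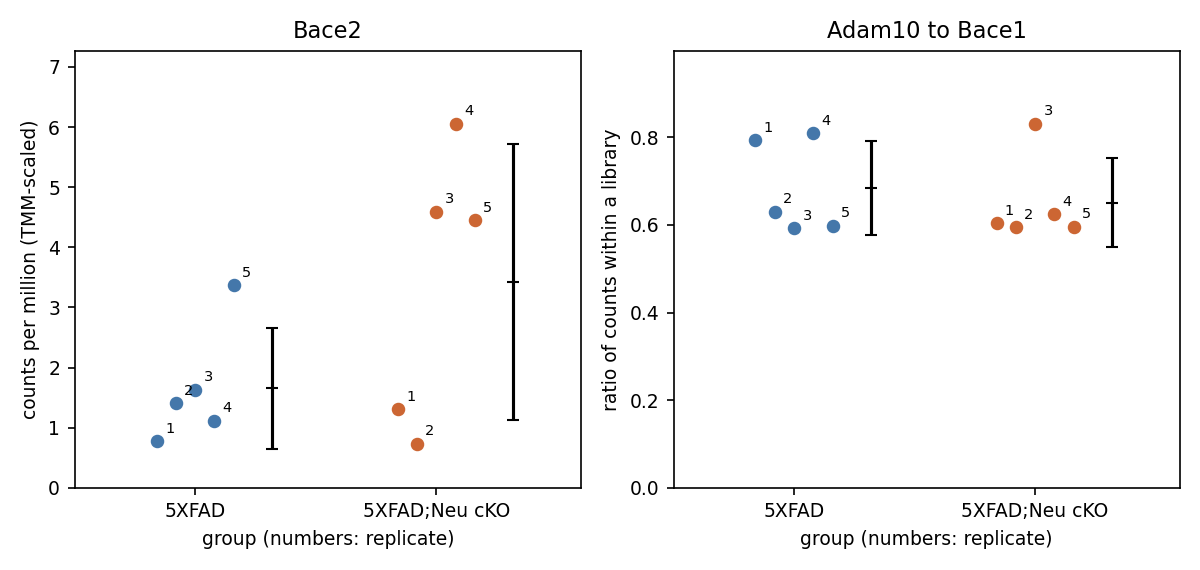
Left, Bace2 in CPM; right, the ratio of Adam10 to Bace1 counts; points are libraries with their replicate numbers and the black bars beside them the mean ± SD (n = 5 per group). Bace2 lay between 4.45 and 6.06 CPM in 3 of the 5 5XFAD;Neu cKO libraries and at 1.31 CPM or less in the other 2, while the ratio ran from 0.592 to 0.831 over both groups.

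Among the γ-secretase subunits, Psen2 encodes a catalytic subunit. It measured 29.8, 28.6, 18.7, 24.0 and 28.1 CPM in 5XFAD and 24.7, 35.1, 23.1, 20.7 and 20.0 CPM in 5XFAD;Neu cKO. The highest library was 5XFAD;Neu cKO replicate 2 and the lowest 5XFAD replicate 3, so the groups overlapped throughout. For Psen2 the log2 fold change was -0.06 (95% interval -0.42 to 0.29, edgeR adjusted p = 0.982), and its sign turned under 2 of the alternatives tried.

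Ncstn encodes nicastrin, the large ectodomain subunit at which substrates enter. Its levels were 12.8, 8.45, 10.9, 9.32 and 10.8 CPM in 5XFAD and 9.16, 16.9, 13.3, 14.5 and 10.8 CPM in 5XFAD;Neu cKO. Above the highest 5XFAD library lay 3 of 5 5XFAD;Neu cKO libraries, and the other 2 fell inside the 5XFAD range. It had a log2 fold change of 0.30 (95% interval -0.19 to 0.80, edgeR adjusted p = 0.871).

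Psenen encodes PEN-2, the small subunit needed for the presenilin to mature by cleaving itself. It measured 9.11, 4.93, 6.79, 7.08 and 7.41 CPM in 5XFAD and 2.80, 6.44, 4.86, 7.91 and 6.90 CPM in 5XFAD;Neu cKO. The lowest value was 15 reads in 5XFAD;Neu cKO replicate 1. Below every 5XFAD library lay 2 of the 5XFAD;Neu cKO libraries, and above these the values of the groups intermix. Its log2 fold change was -0.29 with a wide interval, -0.97 to 0.39 (edgeR adjusted p = 0.928). The ratio of Psenen to Ncstn counts within a library was 0.583 to 0.760 in 5XFAD and 0.306 to 0.640 in 5XFAD;Neu cKO, with means of 0.674 ± 0.0701 and 0.448 ± 0.140 (SD, n = 5 each). The ratios of the 2 groups overlapped, and this ratio, like those of Adam17 to Adam10 and Aph1b to Aph1a, was not among the planned comparisons and got no test.

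Aph1a and Aph1b encode alternative scaffold subunits, and a complex holds one or the other. Aph1a stood at 7.17, 12.2, 9.37, 6.52 and 12.8 CPM in 5XFAD and at 8.23, 9.75, 14.6, 9.25 and 11.1 CPM in 5XFAD;Neu cKO, with a log2 fold change of 0.15 (95% interval -0.40 to 0.70, edgeR adjusted p = 0.966). Aph1b stood at 30.6, 37.5, 38.6, 39.1 and 42.6 CPM in 5XFAD and at 31.6, 25.2, 31.1, 36.8 and 39.4 CPM in 5XFAD;Neu cKO, with a log2 fold change of -0.20 (95% interval -0.50 to 0.10, edgeR adjusted p = 0.853). For both genes the groups overlapped, with 1 5XFAD;Neu cKO library above the 5XFAD range of Aph1a and 1 below that of Aph1b. Since 98.8% of the 3′ stretches of Aph1a and 14.8% of those of Aph1b recur in the genome, their CPM do not give their relative amounts of mRNA. Aph1c, a rodent copy of Aph1b that is counted apart, was low at 2.32 ± 1.06 and 3.35 ± 1.93 CPM (SD, n = 5 each; log2 fold change 0.53, edgeR adjusted p = 0.905).

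Summed by role, the levels were alike in order of size in both groups. The α-secretase genes together measured 80.4 ± 7.83 CPM in 5XFAD and 74.3 ± 7.89 CPM in 5XFAD;Neu cKO (SD, n = 5 each). The β-site genes measured 106 ± 15.1 and 99.5 ± 9.83 CPM (SD, n = 5 each), and the 5 γ-secretase subunits 90.7 ± 6.78 and 86.8 ± 6.29 CPM (SD, n = 5 each). The γ-secretase sum includes Psenen, Aph1a and Aph1b, whose levels are uncertain as amounts of mRNA because part of their 3′ sequence recurs in the genome. In each role the ranges of the groups overlapped, and the sum over all 9 genes was 243 to 303 CPM in 5XFAD and 253 to 271 CPM in 5XFAD;Neu cKO. Bace1 gave 37.6% ± 3.10 of the secretase CPM in 5XFAD and 36.8% ± 3.24 in 5XFAD;Neu cKO, and Adam10 25.5% ± 2.31 and 23.7% ± 2.14 (SD, n = 5 each).

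**Figure D3:**
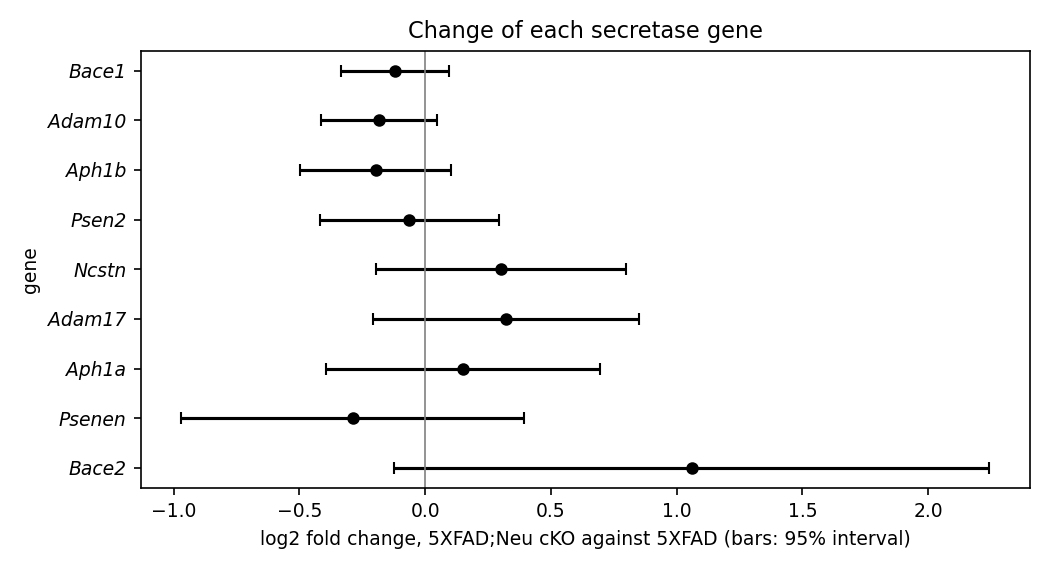
Log2 fold change of each secretase gene (5XFAD;Neu cKO against 5XFAD, 5 libraries each) from the edgeR fit, with bars for the 95% interval, ordered by mean level from Bace1 at the top to Bace2. Every interval includes 0, the narrowest being that of Bace1 (-0.33 to 0.09) and the widest that of Bace2 (-0.12 to 2.24).

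The spread between libraries was smallest for the best counted genes. Within groups, the libraries of Adam10 varied by 9.76% of the mean and those of Bace1 by 12.6%, against 5.13% and 4.17% from counting alone. Aph1b (14.1%), Ncstn (21.0%) and Psen2 (21.3%) followed, and Aph1a (26.3%), Psenen (27.4%) and Adam17 (28.0%) varied more. Counting error covers reads and not molecules, since no molecular identifiers are named in the sources used here.

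The 3′ ends from which the reads come were also compared with the genome and its annotation. For each gene, 425 windows of 76 bases, the length of a read, tile the last 500 bases of its main transcript. For 6 of the 9 genes every window occurs once in GRCm39. For Aph1a 420 windows (98.8%) occur at more than 1 place, the others lying on chromosomes 1 and 6. For Psenen 191 windows (44.9%) recur on chromosomes 4 and 15, and for Aph1b 63 (14.8%) recur in Aph1c on chromosome 9. Reads with several places were set aside by the counting, so the levels of these 3 genes, and of Aph1a most, are uncertain as amounts of mRNA.

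**Figure D4:**
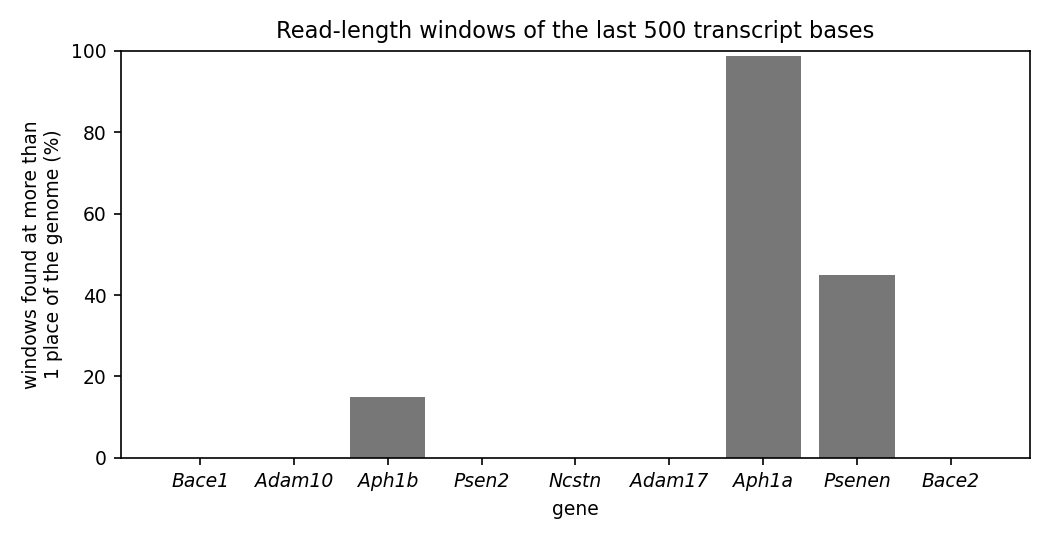
Share of the 425 read-length windows in the last 500 transcript bases that occur at more than 1 place of GRCm39, as a bar for each secretase gene in order of mean level. Aph1a stands at 98.8%, Psenen at 44.9% and Aph1b at 14.8%, and the other 6 genes are at 0.

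Transcripts on the opposite strand also overlap some 3′ ends. All 425 windows of Bace1 lie in Rnf214, a gene running the other way that shares 3449 exon bases with it, and Bace1 further overlaps the antisense entries Gm16536 and Gm49338. For Adam17, 258 windows lie in Iah1 on the opposite strand. Copa overlaps the exons of Ncstn, Car14 those of Aph1a and Car12 those of Aph1b, each on the opposite strand, with log2 fold changes of -0.02, 0.04 and -0.04 (edgeR adjusted p = 0.990, 0.992 and 0.991). The kit keeps strand, and the counting followed the settings its maker advises, but the strand option itself is not named in the sources used here. Reads that the counting could not assign to 1 gene were 0.428% to 0.467% of the reads kept, and Bace1 was counted 435 to 797 times although all its windows lie in Rnf214. Whether reads of such pairs were mixed was not tested. Rnf214 was counted at 55.0 ± 7.25 and 50.9 ± 5.20 CPM (SD, n = 5 each; log2 fold change -0.11, edgeR adjusted p = 0.918), Gm16536 had a log2 fold change of -0.19 (edgeR adjusted p = 0.934) and Gm49338 one of -0.50 (edgeR adjusted p = 0.443). Iah1 had a log2 fold change of -0.10 (edgeR adjusted p = 0.986). When the counts of Bace1 were summed with those of its 3 antisense neighbours, of Adam17 with Iah1 and of Aph1b with Aph1c, an alternative chosen after seeing the data, their log2 fold changes were -0.17, 0.18 and -0.14 and none passed the test.

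The substrate itself did not pass the test. App was counted at 1619.5 ± 83.6 CPM in 5XFAD and 1561 ± 110.2 CPM in 5XFAD;Neu cKO (SD, n = 5 each), a log2 fold change of -0.05 with a 95% interval from -0.18 to 0.08 (edgeR adjusted p = 0.934). In 5XFAD it ran from 1545 to 1743 CPM and in 5XFAD;Neu cKO from 1425 to 1696 CPM. Its relatives Aplp1 and Aplp2, which the same secretases cut, had log2 fold changes of -0.08 and -0.15 (edgeR adjusted p = 0.891 and 0.715). The counts are of mouse genes, and the human transgenes have no entry of their own.

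Around the secretases, 84 of 88 listed genes were tested, among them App and its relatives. Of the rest, Tspan10, Mep1b and Tnf had no read in any library and Hm13 was not matched to an identifier. Past the threshold were 0 of 84 by edgeR (9 at an unadjusted p under 0.05, 3 higher and 6 lower) and 1 by DESeq2, which gave an adjusted p for 51 of the 84, and 42 had a log2 fold change above 0 and 42 below. The groups did not overlap for 2 of 84. These shares, 0% called, 10.7% at unadjusted p and 2.38% not overlapping, stand beside 0.218%, 7.95% and 1.3% of all genes tested.

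Of 15 tested partners, activators and inhibitors of the α-secretases, 11 were higher and 4 lower (median log2 fold change 0.10). Timp3, an inhibitor of ADAM17, measured 127 to 154 CPM in 5XFAD and 104 to 134 CPM in 5XFAD;Neu cKO, with 4 of 5 libraries below every 5XFAD library (log2 fold change -0.26, edgeR unadjusted p = 0.00865, adjusted p = 0.436). Pcsk7, a proprotein convertase that activates ADAM10, and Tspan17, a tetraspanin that escorts it, had log2 fold changes of 0.61 and 0.34 (edgeR adjusted p = 0.602 and 0.744).

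The 18 genes for the trafficking and regulation of BACE1 centred on 0, with a median log2 fold change of -0.0032 and a range from -0.21 to 0.24. Rtn1, a reticulon of the endoplasmic reticulum and the highest of the list at 1615 CPM, gave 1500.2 to 2016 CPM in 5XFAD and 1449 to 1535 CPM in 5XFAD;Neu cKO (log2 fold change -0.21, edgeR unadjusted p = 0.00305, adjusted p = 0.288). Rtn4, another reticulon, had a log2 fold change of -0.14 (edgeR adjusted p = 0.677) and Rab11b, a recycling-endosome GTPase, one of 0.17 (edgeR adjusted p = 0.829).

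Of 9 genes for assembly and modulation of γ-secretase, 5 were higher and 4 lower (median log2 fold change 0.02), and 0 reached an unadjusted p under 0.05. The nearest were Ifitm3, an interferon-induced membrane protein that binds γ-secretase (-0.38, edgeR adjusted p = 0.655), Rer1, a retrieval receptor of the early secretory route (0.20, edgeR adjusted p = 0.824), and Erlin2 (0.22, edgeR adjusted p = 0.871). Of 6 related proteases tested, 4 were higher and 2 lower. Adam9, a metalloprotease that can also cut APP, measured 14.7, 2.82, 9.51, 9.32 and 2.92 CPM in 5XFAD and 15.7, 3.49, 15.2, 13.1 and 17.8 CPM in 5XFAD;Neu cKO, so that low libraries occurred in both groups (log2 fold change 0.72, edgeR unadjusted p = 0.0341, adjusted p = 0.562). Sppl2b, an intramembrane protease related to presenilin, had a log2 fold change of 0.31 and the metalloprotease Mmp24 one of 0.14 (edgeR adjusted p = 0.838 and 0.945).

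Among 13 other substrates of BACE1, 6 were higher and 7 lower (median log2 fold change -0.06). Sez6, a neuronal protein that BACE1 sheds, came closest of all 84 genes to the threshold. It measured 869, 1065, 774, 930.2 and 805 CPM in 5XFAD and 804, 781, 608, 691 and 685 CPM in 5XFAD;Neu cKO. Below every 5XFAD library lay 3 of the 5, and the other 2 overlapped the 5XFAD range. The log2 fold change was -0.32 (95% interval -0.47 to -0.16, edgeR unadjusted p = 0.000196, adjusted p = 0.0700), and DESeq2 called it (adjusted p = 0.0320). Over 18 alternatives its adjusted p ran from 0.00296 to 0.409 (without 5XFAD replicate 2), and 7 of them called it. Cntn2, an axonal adhesion protein, and Sez6l2, a relative of Sez6, had log2 fold changes of -0.27 and -0.16 (edgeR adjusted p = 0.564 and 0.715).

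Among 20 tested substrates of ADAM10, ADAM17 or γ-secretase, 8 were higher and 12 lower (median log2 fold change -0.10). Trem2, the microglial lipid receptor shed by ADAM10 and ADAM17, measured 12.6 to 18.8 CPM in 5XFAD and 5.38 to 11.6 CPM in 5XFAD;Neu cKO. Its groups did not overlap, which by itself gives the exact two-sided permutation p of 0.00794, the smallest possible. Of the listed genes, Scn2b, a BACE1 substrate, was the other such case (log2 fold change -0.14, edgeR adjusted p = 0.748). Trem2 had a log2 fold change of -0.96 with an edgeR adjusted p of 0.0994. Over 18 alternatives that adjusted p ran from 0.0330 to 0.387 (without 5XFAD;Neu cKO replicate 3), and 1 of them called Trem2. Trem2 is also in the microglia list, of which 15 of 15 tested genes were lower, and how far the cell type's markers carry this value was not tested. Il6ra, the interleukin-6 receptor shed by ADAM10 and ADAM17, was higher in most 5XFAD;Neu cKO libraries, at 4.97 to 8.62 against 2.04 to 5.40 CPM (log2 fold change 0.97, edgeR unadjusted p = 0.0127, adjusted p = 0.449). Cdh2, an adhesion protein of synapses cut by ADAM10, had a log2 fold change of -0.28 (edgeR adjusted p = 0.556).

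**Figure D5:**
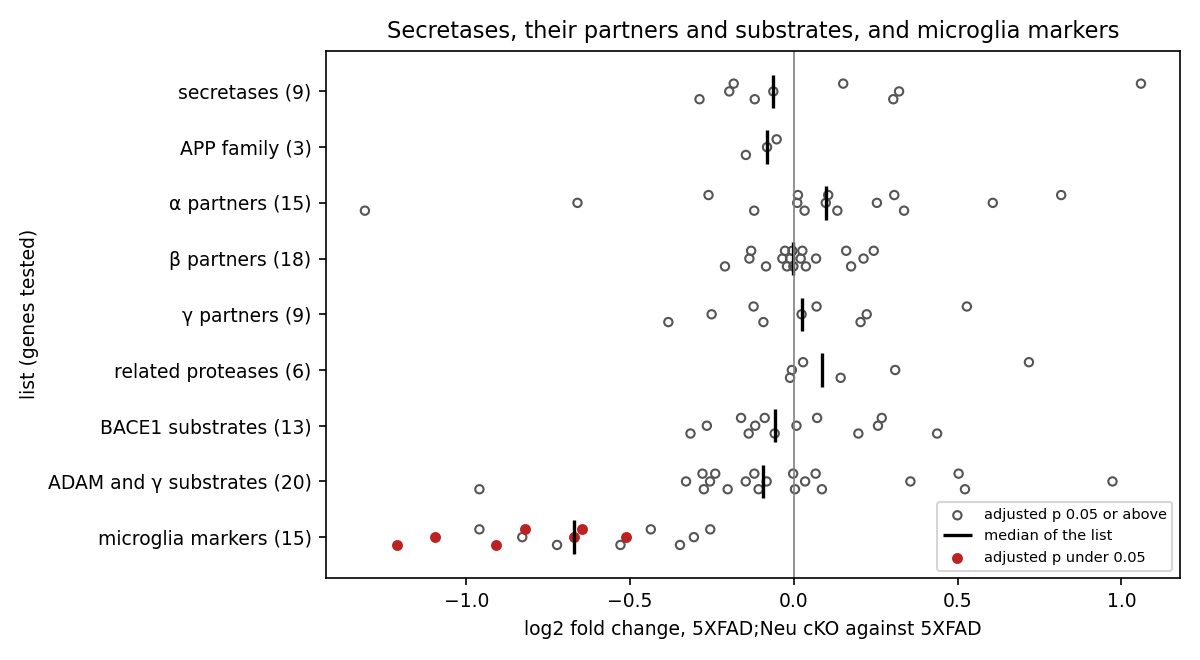
Log2 fold changes (5XFAD;Neu cKO against 5XFAD) of the secretases, the 7 lists of partners, substrates and relatives, and the microglia markers; each circle is a gene, filled red where the edgeR adjusted p is under 0.05, and the black bar is the median of the list. The medians of the secretase lists lie between -0.10 and 0.10, and that of the microglia markers is -0.67, with 7 of 15 filled.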

How the data were processed

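Cortical QuantSeq 3′ libraries of 5 5XFAD;Neu cKO and 5 5XFAD mice were analysed, grouped by their labels. The authors trimmed the single reads, aligned them with STAR and used htseq-count on Ensembl genes, and the values they deposited are whole-number counts with no scaling. The submitters' processing notes name STAR 2.7.3a, HTSeq 0.9.1 and GRCm39. The paper's methods name a different version of HTSeq. Summary rows, among them reads on no gene (31.3% to 39.9% of the reads kept), entered neither library sizes nor tests. For each read counted, 2.76 to 3.98 multiple alignments were left out.

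Symbols and positions came from a later GENCODE annotation of the same build. Genes with a total count of 10 or less were removed. The rest entered edgeR 4.0.16 under R 4.3.3 (TMM, estimateDisp, glmQLFit, glmQLFTest, group as the only term), with Benjamini-Hochberg adjustment over all 19268 genes. The 95% intervals use the quasi-likelihood standard error. Log2 CPM for the exact permutation tests had a prior count of 2. Alternatives were DESeq2 1.42.0, its size factors in edgeR, library totals, filterByExpr, no filter, a robust fit, no mitochondrial genes, the replicate block and each library left out. The steps were tested on simulated counts. All pairs of libraries within a group differed by more than counting error (smallest chi-square per degree of freedom 5.70 over 20 pairs). The study gives 5 mice per genotype, and the labels number the libraries as replicates.

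The members and lists were chosen with earlier results of these data known. The genes named are the 9 members, Mylip, App, Aph1c and genes that overlap or copy a member. From each pathway list they are the 3 genes with the smallest p and any past the threshold. From marker lists they are the highest gene or those past the threshold. Scn2b is named because its groups did not overlap. Marker lists without a gene past the threshold were those of oligodendrocyte precursors (5 genes), endothelial cells (8) and both kinds of neurons (9 excitatory, 7 inhibitory). Their highest genes were Olig1, Flt1, Nrgn and Gad1 (log2 fold changes 0.03, 0.01, -0.09 and 0.22), and those of the astrocyte, oligodendrocyte and neighbouring-region lists were Slc1a2, Mbp and Ppp1r1b (-0.04, -0.28 and 0.12). Some genes of the pathway are not reported here.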

Additional observations from a re-analysis of the deposited data

Results flagged for a closer look

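In 2 of 20 groups of 5 values (the 9 genes and the Adam10 to Bace1 ratio, in each condition) 1 library stood apart by Dixon's test, where chance flags about 1 group in 20. Adam17 was at 8.04 CPM in 5XFAD;Neu cKO replicate 5, and its other 4 libraries lay between 12.9 and 13.8 CPM. Without that library the log2 fold change of Adam17 was 0.44 (edgeR adjusted p = 0.841). The ratio of Adam10 to Bace1 was 0.831 in 5XFAD;Neu cKO replicate 3, against 0.595 to 0.625 in the others of the group, and without it the difference between the groups was -0.16 on the log2 scale.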

How the results depend on the processing

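No secretase gene passed the threshold under any alternative in which it had an adjusted p and, where recomputed, 0 of 9 had groups that did not overlap. Bace2 did not reach the level that filterByExpr asks for and was not tested there, and DESeq2 left the adjusted p of Bace2, Adam17, Ncstn, Psenen and Aph1a as NA. At an unadjusted p under 0.05, 1 of 9 was counted without 5XFAD replicate 5, 5XFAD;Neu cKO replicate 1 or 5XFAD;Neu cKO replicate 2. Under every other alternative that count was 0, and with all libraries in the main fit 7.95% of all genes reached that level. The sign of 8 of 9 log2 fold changes held throughout. That of Psen2 turned from -0.06 to 0.028 with library totals in place of TMM and to 0.0057 without 5XFAD;Neu cKO replicate 5 (-0.22 to 0.0057 over the libraries left out); the cause was not tested. Library totals moved the median of all genes to 0.09. The estimates of all 9 genes moved upward there, Adam10 from -0.18 to -0.096 and Bace1 from -0.12 to -0.035. Leaving out 1 library at a time moved the estimate of Bace2 most, from 0.76 (without 5XFAD;Neu cKO replicate 4) to 1.46 (without 5XFAD replicate 5), and the difference in the Adam10 to Bace1 ratio lay between -0.16 and -0.0094.

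The count of partner, substrate and relative genes past the threshold went from 0 to 1 with DESeq2, with no filter and with the robust fit, and lay between 0 and 1 over the libraries left out (1 without 5XFAD replicate 3, 5XFAD replicate 5 or 5XFAD;Neu cKO replicate 1). The gene called was Sez6 each time. With the replicate block it was 2, Sez6 and Trem2 (edgeR adjusted p = 0.00296 and 0.0330), and the secretase genes stayed at 0 of 9. The replicate numbers showed no sign of pairing the samples. Same-number libraries correlated between -0.011 and 0.019 in their deviations from the group means, and none correlated best with its own number. Correlations with other numbers reached at most 0.030. With values this small the check cannot tell whether same-number libraries shared a litter or batch. The block took the count of all genes past the threshold from 42 to 112, no filter to 103, DESeq2 to 69 and filterByExpr to 32. Counting error alone was 25.3% of the mean for Bace2, 16.4% for Psenen, 13.0% for Aph1a and 12.5% for Adam17.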
